A study of Homo sapiens with 4 samples.

Results

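SRC, focal adhesion kinase (FAK) and the proteins that work with them at cell-matrix contacts were followed in LN229 cells after sCT treatment. Members were every antibody of the panel, total or phosphosite, to Src, CSK, FAK, Pyk2, Paxillin, Vinculin, Caveolin-1, CD29, CD49b and SHP-2. This rule found 14 of the 440 antibodies, of which 9 recognise a total protein and 5 a phosphorylated tyrosine. No filter was applied, so all 14 were tested.

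LN229 cells are a widely used line from a human glioblastoma. sCT, or salmon calcitonin, is a peptide ligand of the calcitonin receptor (CTR), which belongs to the G protein-coupled receptors. Reverse Phase Protein Array (RPPA) levels were deposited for 2 untreated samples (time 0 min) and for 2 samples treated with 300 nM sCT for 60 min. No untreated sample at 60 min is in the series. A change after sCT therefore cannot be told apart from a change with time or handling. The series asks which proteins sCT regulates, and the samples are called biological duplicates, without a statement that they came from separate cultures, so p-values may measure technical spread only. The labels name no other agent and no allele in either group, and 1 cell line stands for the tumor.

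SRC is a tyrosine kinase that is held closed when its C-terminal tyrosine (Y527) is phosphorylated by CSK, and is fully active when the tyrosine of its activation loop (Y416) is phosphorylated. When integrins bind the matrix, FAK phosphorylates itself at Y397 and this site recruits SRC. The pair then phosphorylates scaffolds such as paxillin, and vinculin ties the adhesion to actin. In glioma cells these contacts are known for their part in spreading and invasion.

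A level is a linear ratio on a relative scale, and the sample medians over the panel lay between 0.9998 and 1.0003. It compares samples for one antibody, not antibodies with each other, and an amount per cell cannot be told apart from a change of the rest of the panel. For the same reason the identity of the cells could not be checked from markers. Of the glial markers looked for, only Sox2 and Vimentin were on the panel, and GFAP, Nestin, Olig2, S100B and N-Cadherin were not matched. Groups were compared on the log2 scale with limma, and a change was counted where the Benjamini-Hochberg adjusted p over all 440 antibodies was under 0.05. For a single antibody, the exact permutation test over 2 and 2 samples has a smallest two-sided p of 0.333. Over the whole panel 242 antibodies passed (55.0%), with 148 lower (33.6%) and 94 higher (21.4%). For 378 antibodies (85.9%) the samples of the groups did not overlap. Replicates of these 14 antibodies lay close together, with a median SD of log2 levels of 0.04 in untreated and 0.02 in sCT-treated cells.

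After sCT, the antibodies to SRC rose together, at both regulatory tyrosines and in total SRC, and CSK rose with them. Total FAK, paxillin, caveolin-1 and total SHP2 fell, whereas FAK phosphorylated at Y397 and the collagen-binding integrin chain CD49b rose. Vinculin, CD29, Pyk2 phosphorylated at Y402 and SHP-2 phosphorylated at Y542 did not pass the test. The direction of these falls and rises held under other scalings of the samples, except that paxillin and caveolin-1 stood at 0.14 and 0.13 on the log2 scale under quantile normalization. Of the 14 antibodies 10 passed in limma (71.4%, against 55.0% of the panel), with 4 lower and 6 higher. The groups did not overlap for 12 of the 14 (85.7%, against 85.9% of the panel). The median log2 fold change was 0.06 over the 14 and 0.02 over all 440. The count of called antibodies rested on few samples. It fell whichever sample was left out, and most without an sCT replicate, and the same held for the count over the whole panel.

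**Figure D1:**
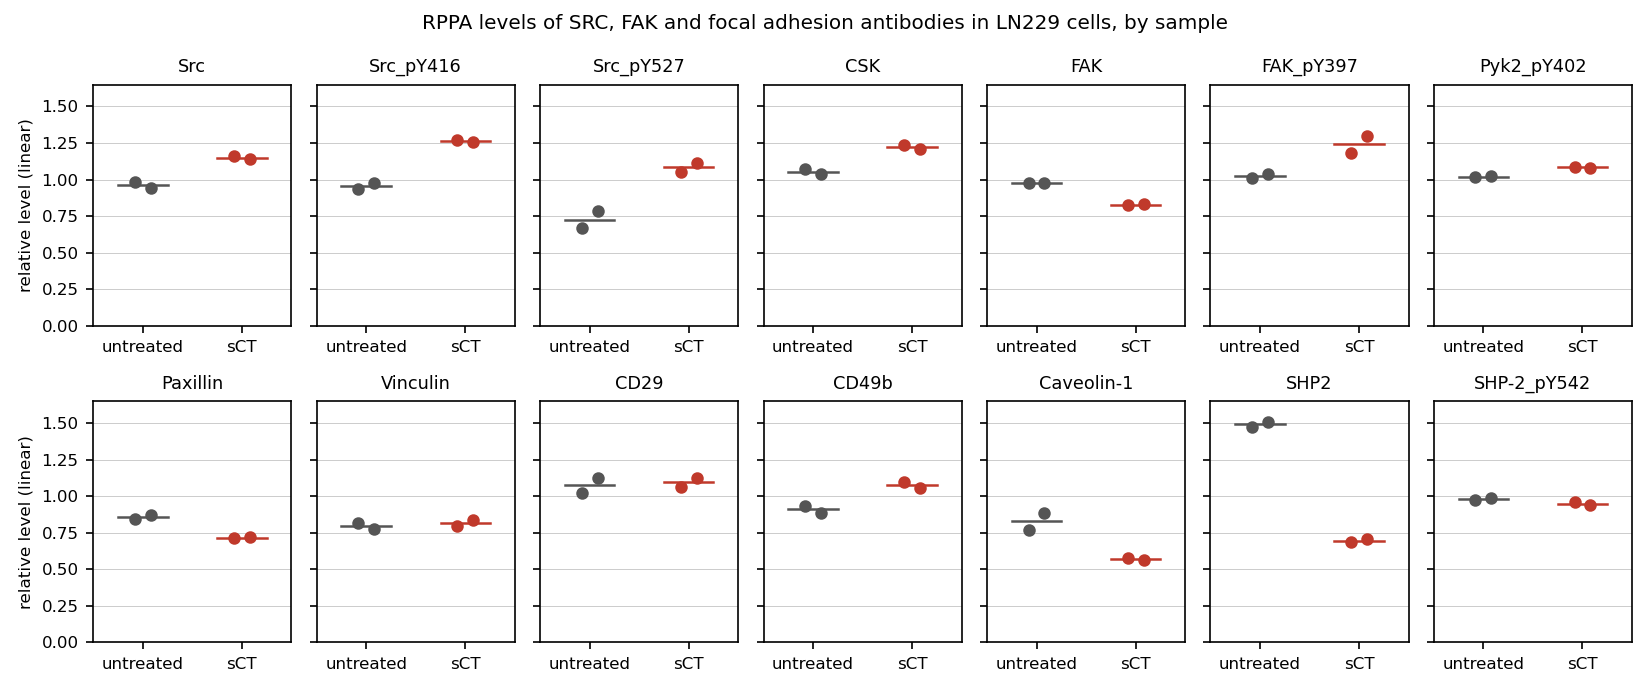
Linear relative RPPA level (vertical axis, no unit) of each of the 14 antibodies in untreated (grey) and sCT-treated (red) LN229 cells. Points are samples, 2 per group, and horizontal lines are group means. Total SHP2 dropped from a mean of 1.49 to 0.695, and the 3 SRC antibodies lay higher in both sCT-treated samples.

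SRC phosphorylated at Y416, the site in the activation loop, had levels of 0.939 and 0.978 in the untreated samples and of 1.27 and 1.26 in the sCT-treated ones. Both treated samples lay above both untreated samples, and the gap was many times the distance between replicates. The level was 1.32 times as high after sCT, a log2 fold change of 0.40 (limma adjusted p = 0.00235, SE 0.05). This site is shared by sequence with other kinases of the SRC family, and antibodies to it are known to detect them as well. Of the family's other members, Lyn and Lck were on the panel as total proteins, with log2 fold changes of 0.08 (adjusted p = 0.205) and 0.38 (adjusted p = 0.132). The value of Lck moved with the sample left out, to 0.63 (adjusted p = 0.0159) without untreated replicate 1 and to 0.13 (adjusted p = 0.317) without untreated replicate 2.

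SRC phosphorylated at Y527, the inhibitory C-terminal site, gave levels of 0.669 and 0.783 in untreated cells and of 1.05 and 1.11 after sCT. The untreated samples differed from each other more than for any other SRC antibody, but the groups did not overlap. The rise was the largest of the 14, with a log2 fold change of 0.58 (limma adjusted p = 0.00589, SE 0.09), which is 49.5% above the untreated level. It ranked 12th from the top among the 440 antibodies.

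Total SRC rose by less, from 0.985 and 0.944 to 1.16 and 1.14, a log2 fold change of 0.25 (limma adjusted p = 0.0103, SE 0.05). CSK, the kinase that phosphorylates Y527, went from 1.07 and 1.04 to 1.23 and 1.21, a log2 fold change of 0.21 (adjusted p = 0.0160, SE 0.05). Both rises depended on how samples were scaled and on single samples. When each sample was centred on loading control antibodies, SRC stood at 0.11 (adjusted p = 0.378) and CSK at 0.07 (adjusted p = 0.625). SRC lost its call when sCT replicate 1 (adjusted p = 0.0732) or 2 (0.0555) was left out, and CSK passed in 1 of the 4 fits that left a sample out, the one without untreated replicate 1. The rise at Y416 passed in all 4 of those fits, with adjusted p of at most 0.0301, and the rise at Y527 in 3 of 4, with adjusted p = 0.0510 without sCT replicate 2.

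Differences between antibodies within one sample do not change when all levels of the sample are multiplied by one factor. They were therefore used to set each site against its total protein and both SRC sites against each other, on the log2 scale and with the exact permutation test. Relative to total SRC, Y416 was higher by 0.15 log2 units after sCT and Y527 by 0.33. For Y416 minus SRC the differences were -0.07 and 0.05 in untreated cells and 0.13 and 0.14 in treated ones. For Y527 minus SRC they were -0.56 and -0.27 in untreated cells and -0.14 and -0.03 in treated ones. In both cases the groups did not overlap. Without untreated replicate 1 the rises relative to total SRC were 0.08 for Y416 and 0.18 for Y527, and without untreated replicate 2 they were 0.21 and 0.47.

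Set against each other, the activating site moved down relative to the inhibitory one. The difference of Y416 minus Y527 was 0.49 and 0.32 in untreated cells and 0.27 and 0.17 after sCT, a change of -0.18 log2 units. On the log2 scale the groups did not overlap, but the lower untreated value and the higher treated value lay close to each other. Differences of the linear levels did overlap between the groups. Without untreated replicate 1 the change was -0.10, and without untreated replicate 2 it was -0.26. Each of these comparisons had an exact permutation p of 0.333, two-sided, the smallest that 4 samples allow. Under quantile normalization the log2 fold changes were 0.56 for Y416, 1.08 for Y527 and 0.27 for total SRC. The changes between these antibodies were then larger in size than on the deposited scale, in the same directions.

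FAK is the tyrosine kinase that integrins engage at adhesions, and its total level and its autophosphorylation site moved in opposite directions. Total FAK was 0.978 and 0.975 in untreated cells and 0.823 and 0.832 after sCT, a log2 fold change of -0.24 (limma adjusted p = 0.00863, SE 0.04). FAK phosphorylated at Y397 went from 1.01 and 1.04 to 1.18 and 1.30, a log2 fold change of 0.28 (adjusted p = 0.0177, SE 0.06). The groups did not overlap for either antibody. Within samples, Y397 relative to total FAK was 0.05 and 0.09 in untreated and 0.52 and 0.64 in treated cells. This was a rise of 0.52 log2 units, or 1.43 times (exact permutation test, two-sided, p = 0.333), and it was 0.49 under quantile normalization. The call of FAK was lost without either sCT replicate (adjusted p = 0.0634 and 0.0525) and under quantile normalization (-0.15, adjusted p = 0.0520). That of Y397 was lost in 3 of the 4 fits that left a sample out (without untreated replicate 1, untreated replicate 2 or sCT replicate 2), with adjusted p of at most 0.0792. It was also lost under quantile normalization (0.34, adjusted p = 0.0536) and with loading control centring (0.13, adjusted p = 0.301).

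Pyk2 is the closest relative of FAK, and its Y402 corresponds to Y397 of FAK. The levels of this site were 1.01 and 1.03 in untreated cells and 1.09 and 1.08 in treated ones. They did not overlap, but the log2 fold change of 0.09 did not pass (95% interval -0.02 to 0.20, adjusted p = 0.137, limma). No antibody to total Pyk2 was among the 440, so the site could not be set against its protein.

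**Figure D2:**
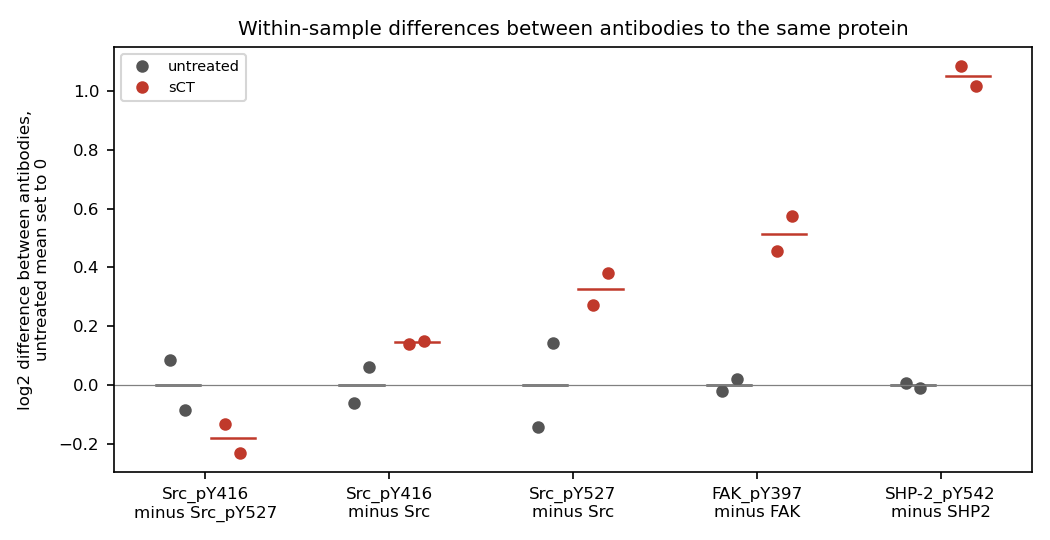
Differences in log2 level between an antibody to a site and another antibody to the same protein (vertical axis, log2 units), per sample, with the mean of the untreated samples set to 0. Grey points are untreated and red points sCT-treated samples, with 2 per group and lines at group means. The change was 1.05 for SHP-2 at Y542, 0.52 for FAK at Y397, 0.33 for Src at Y527 and 0.15 for Src at Y416 relative to total protein, and -0.18 for Y416 relative to Y527.

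Among the structural proteins of the adhesion, paxillin fell and vinculin did not pass the test. Paxillin, the scaffold that FAK and SRC phosphorylate, had levels of 0.847 and 0.872 in untreated cells and of 0.716 and 0.718 after sCT. Its log2 fold change was -0.26 (limma adjusted p = 0.00755, SE 0.04). The treated samples lay below the untreated ones on the deposited scale, but quantile normalization turned the direction, to 0.14 (adjusted p = 0.342). The call was also lost without either sCT replicate (adjusted p = 0.0578 and 0.0522).

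Vinculin, which couples adhesions to actin filaments, had levels of 0.816 and 0.773 in untreated cells and of 0.799 and 0.834 in treated ones. The groups overlapped, and the log2 fold change was 0.04 (95% interval -0.10 to 0.18, adjusted p = 0.557, limma). Its value hung on the scaling more than that of any other of the 14 that did not pass. Quantile normalization gave 0.61 (adjusted p = 0.00535), and centring on loading controls -0.11 (adjusted p = 0.421).

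CD29 is integrin beta 1, the chain shared by most matrix-binding integrins, and CD49b is integrin alpha 2, its partner in a collagen receptor. CD29 levels were 1.02 and 1.13 in untreated and 1.06 and 1.12 in treated cells. The treated values lay inside the range of the untreated ones, with a log2 fold change of 0.03 (95% interval -0.15 to 0.20, adjusted p = 0.757, limma), which was -0.12 (adjusted p = 0.344) with loading control centring. CD49b went from 0.936 and 0.882 to 1.10 and 1.06, a log2 fold change of 0.24 (adjusted p = 0.0170, SE 0.05). This rise passed in 1 of the 4 fits that left a sample out, the one without untreated replicate 1, and stood at 0.10 (adjusted p = 0.433) with loading control centring.

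Caveolin-1, the coat protein of caveolae and a SRC substrate, was among the antibodies that fell. Its levels were 0.766 and 0.887 in untreated cells and 0.574 and 0.566 after sCT. The treated samples lay below both untreated samples, which were farther apart from each other than for most of the 14. The log2 fold change was -0.53 (limma adjusted p = 0.00587, SE 0.08). Under quantile normalization, however, it was 0.13 (adjusted p = 0.708). The treated values, 0.707 and 0.679, then lay between the untreated ones, 0.486 and 0.820. Without sCT replicate 2 the adjusted p was 0.0503.

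SHP2, a tyrosine phosphatase that acts downstream of growth factor receptors and at adhesions, showed the largest change of the 14. The level of total SHP2 was 1.47 and 1.51 in untreated cells and 0.686 and 0.704 after sCT. Both treated samples were far below both untreated ones, with a log2 fold change of -1.10 (limma adjusted p = 0.000146, SE 0.05), the 43rd lowest of the 440. The call stood in all 4 fits that left a sample out, in which the log2 fold change was between -1.12 and -1.08. It was -0.82 (adjusted p = 0.00153) under quantile normalization and -1.25 with loading control centring.

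SHP-2 phosphorylated at Y542, a site in its C-terminal tail, did not follow the total protein. Its levels were 0.976 and 0.988 in untreated cells and 0.957 and 0.938 in treated ones, a log2 fold change of -0.05 (95% interval -0.17 to 0.06, adjusted p = 0.340, limma). Relative to total SHP2 the site was at -0.59 and -0.61 log2 units in untreated and at 0.48 and 0.41 in treated cells. The difference rose by 1.05 log2 units (exact permutation test, two-sided, p = 0.333), and by 0.80 under quantile normalization. Spot intensities were not used here, so it is unknown how far the signal of either antibody lay above background.

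**Figure D3:**
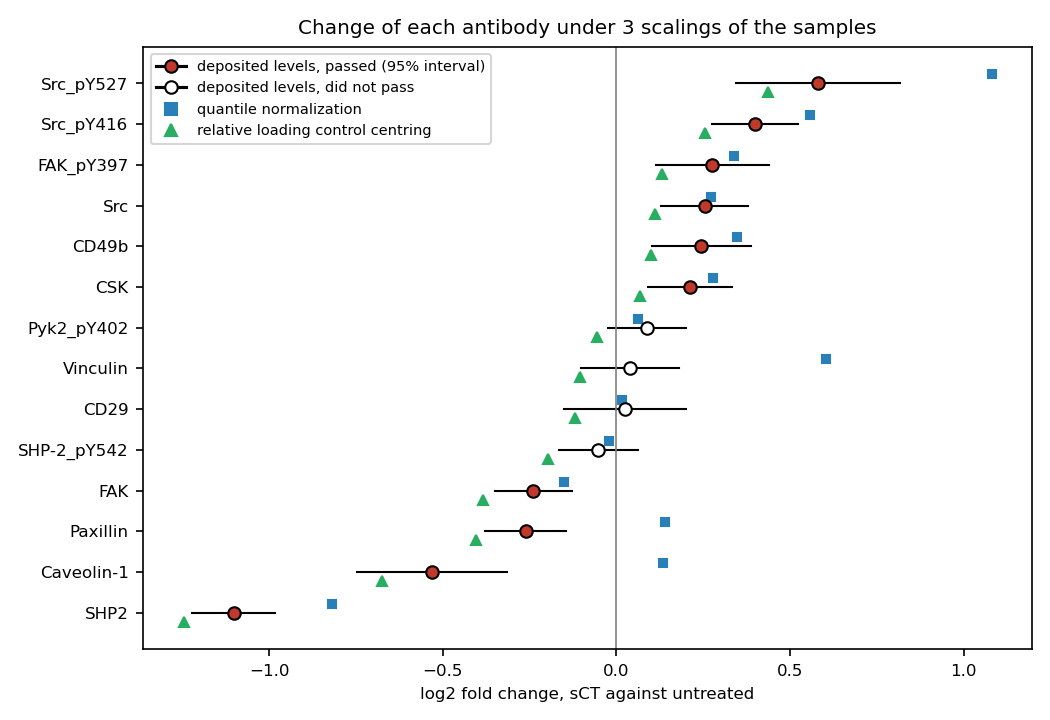
Log2 fold change of sCT-treated against untreated LN229 cells (horizontal axis, log2 units) for the 14 antibodies. Circles are the deposited levels with the 95% interval from limma, filled red where the adjusted p was under 0.05, blue squares are quantile-normalized levels and green triangles levels centred on loading controls. Src_pY527, Src_pY416 and SHP2 kept their side of 0 and their calls under all 3 scalings, while Caveolin-1 and Paxillin changed side under quantile normalization, and Vinculin, CD29 and Pyk2_pY402 with loading control centring.

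How the samples were scaled decided several of the changes, among them that of Caveolin-1 (-0.53 on the deposited scale). Loading control centring used GAPDH, b-Actin, Calnexin, Cox-IV and Histone-H3, each relative to its own mean, and shifted the panel's median log2 fold change by -0.14. On the deposited scale these 5 controls had log2 fold changes between -0.15 (Histone-H3) and 0.57 (GAPDH), and GAPDH and b-Actin passed the test. b-Actin passed in 0 of the 4 fits that left a sample out, and GAPDH not without sCT replicate 2 (adjusted p = 0.0503). With this centring 6 of the 14 passed (42.9%, against 46.6% of the panel), 4 lower and 2 higher, the higher ones being Src_pY416 at 0.26 (adjusted p = 0.0280) and Src_pY527 at 0.44 (adjusted p = 0.00114). With quantile normalization 7 of the 14 passed (50.0%, against 49.5% of the panel), 1 lower and 6 higher. Of the 10 antibodies called on the deposited scale, quantile normalization kept the call and direction of 6 (Src_pY416, Src_pY527, SHP2, Src, CSK and CD49b). Loading control centring also kept 6 (Src_pY416, Src_pY527, SHP2, FAK, Paxillin and Caveolin-1), so 3 were kept by both.

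No pair of the 14 was closer in its pattern over the 4 samples than CD49b and Src, at a Euclidean distance of 0.03 between log2 levels centred on their means. FAK and Paxillin followed at 0.04. Over the whole panel, the antibodies nearest to Src_pY416 were Gys (0.01), CD68 (0.03) and CA9 (0.05). Those nearest to Src_pY527 were MCT4 (0.16), Mitofusin-1 (0.17) and B7-H3 (0.17), and those nearest to SHP2 were Chk2_pT68 (0.06), FN14 (0.12) and BAP1 (0.12). For FAK they were Jak2, Smad4 and Paxillin, and for Src TUFM, SOD2 and CD49b, at distances of 0.02 to 0.04. With 4 samples in 2 groups such nearness mostly records a like change and a like replicate spread.

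Other proteins of adhesions, matrix and actin were taken from a list that matched 21 further antibodies. Of these 15 passed (71.4%, against 55.0% of the panel), 10 lower and 5 higher, with a median log2 fold change of -0.10. The largest falls were Myosin-IIa_pS1943 (-4.38), the phosphorylated heavy chain of the motor that tensions adhesions, the gap junction protein Connexin-43 (-2.02) and total Myosin-IIa (-2.01). The first and the last of these stayed called under both other scalings, while Connexin-43 stood at 0.25 (adjusted p = 0.709) under quantile normalization. The largest rises were Cdc42 (0.40), a small GTPase of actin protrusion, the matrix protease MMP14 (0.36) and the hyaluronan receptor CD44 (0.26). Of these 3, only Cdc42 passed with loading control centring (0.26, adjusted p = 0.0288). MMP14 passed in 1 of the 4 fits that left a sample out, the one without sCT replicate 2. CD44 was at adjusted p = 0.0514 without sCT replicate 2, and Connexin-43 at adjusted p = 0.0547 without untreated replicate 2.

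Kinases, phosphatases and adaptors that work with SRC matched 20 further antibodies, of which 11 passed (55.0%, the share of the panel), 8 lower and 3 higher. The largest falls were PTPN12 (-1.77), a phosphatase that acts on adhesion scaffolds, the docking protein Gab2 (-1.58), which binds SHP2, and Akt_pS473 (-1.47). Each stayed called in all 4 fits that left a sample out and under both other scalings, at -0.53, -0.50 and -1.07 with quantile normalization. Total Akt had a log2 fold change of 0.03 (adjusted p = 0.590). Antibodies to single Akt forms were outside this list and changed less than Akt_pS473. Akt1_pS473 fell by -0.67 (adjusted p = 0.0359, limma) but did not pass under quantile normalization (-0.56, adjusted p = 0.0554). Akt2_pS474 did not pass on the deposited scale (-0.15, adjusted p = 0.0693, limma). The rises were small, at 0.24 for Erk5, 0.17 for PI3K-p85 and 0.17 for PI3K-p110-b. With loading control centring 0 of these 3 rises passed, with adjusted p between 0.455 and 0.876. Erk5 was not called when either sCT replicate was left out, and the PI3K subunits passed in 0 of those 4 fits.

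Receptor tyrosine kinases, which engage SRC and SHP2 at the membrane, matched 19 antibodies, of which 52.6% passed, near the 55.0% of the panel. There were 6 lower (31.6%, against 33.6% of the panel) and 4 higher (21.1%, against 21.4%). Both the list and the panel had fewer calls with any sample left out. EphA2_pS897 (-1.81), HER2 (-1.53) and total EphA2 (-0.86) fell the furthest, and IR-b (0.59), the beta chain of the insulin receptor, rose the most. These 4 stayed called in every fit that left a sample out and under both other scalings. The rises of DDR1 (0.21) and HER3_pY1289 (0.20) passed in 0 of the 4 fits that left a sample out, with adjusted p of up to 0.115 and 0.127.

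Outside the SRC and FAK group, few of the listed tyrosine sites passed. The list took antibodies whose site is named by a tyrosine first. Sites named by a threonine and then a tyrosine were in neither this list nor that of serine and threonine sites. Examples are p38-MAPK-_pT180_Y182 (log2 fold change -0.56) and BMK1-Erk5_pT218_Y220 (0.09). Of the 14 other antibodies in the tyrosine list 4 passed (28.6%, against 55.0% of the panel), 2 lower and 2 higher. With any 1 sample left out 1 or 2 of these passed, and 0 of them were higher. The adaptor site Shc_pY317 went from 0.913 and 0.894 to 0.479 and 0.545, a log2 fold change of -0.82 (adjusted p = 0.00103, limma), and HER2_pY1248 changed by -0.28 (adjusted p = 0.0135). Leaving out untreated replicate 2 or sCT replicate 1 ended the call of the HER2 site, with adjusted p of 0.0679 and 0.0788. HER3_pY1289 (0.20) and EphA2_pY588 (0.17) passed on the deposited scale but in 0 of the 4 fits that left a sample out and under neither other scaling. Receptor sites such as EGFR_pY1173 (0.07), c-Met_pY1234_Y1235 (-0.05) and VEGFR-2_pY1175 (-0.06) did not pass, with adjusted p between 0.212 and 0.429. Among SRC partners, c-Abl_pY412 (-0.04), Stat3_pY705 (0.09) and PLC-gamma2_pY759 (0.09) did not pass (limma adjusted p between 0.144 and 0.558). The remaining sites did not pass either, with limma adjusted p between 0.276 and 0.984. They were DDR1_pY513 (0.001), IGF1R_pY1135_Y1136 (-0.05), cdc2_pY15 (-0.12) and FRS2-a_pY196 (0.06). Taking the SRC, FAK, Pyk2 and SHP-2 sites in, the 19 listed tyrosine sites gave 2 lower (10.5%, against 33.6% of the panel) and 5 higher (26.3%, against 21.4%). Of the 5, the 3 largest rises were Src_pY527, Src_pY416 and FAK_pY397.

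Serine and threonine sites gave another balance. Of the 65 antibodies to such sites alone, 39 were lower (60.0%, against 33.6% of the panel) and 2 higher (3.08%, against 21.4%). Without sCT replicate 1 the counts were 23 and 0, and without sCT replicate 2 they were 24 and 2. These sites had a median log2 fold change of -0.29, against -0.02 over the 14 other tyrosine sites and 0.28 over the 5 sites of SRC, FAK, Pyk2 and SHP-2. With quantile normalization 28 serine or threonine sites were lower and 5 higher, and with loading control centring 47 were lower and 0 higher. Over the 19 listed tyrosine sites the counts were 2 lower and 2 higher under the first scaling and 3 lower and 2 higher under the second. The difference between these kinds of site was not tested, and the lists share antibodies with those of receptors and SRC partners.

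**Figure D4:**
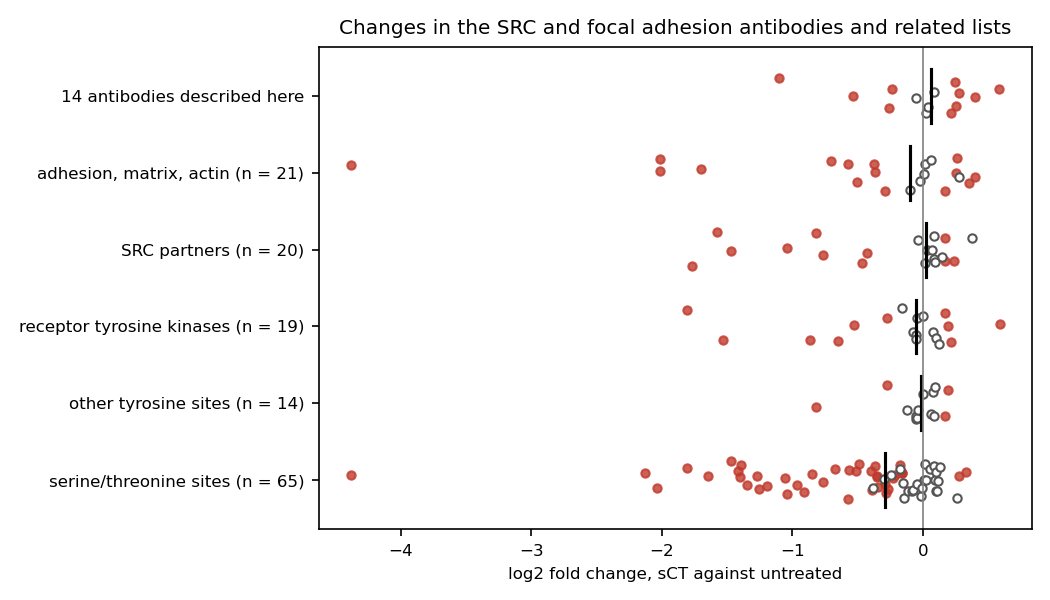
Log2 fold change of sCT-treated against untreated cells (horizontal axis, log2 units) for the 14 antibodies and the related lists, with list sizes on the vertical axis and points spread vertically for legibility. Filled red points had an adjusted p under 0.05 in limma, open points did not, and black bars are medians. Medians ran from -0.29 for serine and threonine sites to 0.06 for the 14 antibodies.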

How the data were processed

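Protein levels were measured by RPPA, in which lysates are diluted serially, printed on nitrocellulose-coated slides and probed with one antibody per slide. The authors deposited linear ratios, one per antibody and sample, with sample medians between 0.9998 and 1.0003. The steps from spot intensity to these levels are not given in the sources used here. The height of a signal above background is therefore unknown, and the small number of samples limits the precision. The log2 of each level, with no pseudocount, was fitted in limma 3.58.1 (R 4.3.3) by lmFit with group as the only term, followed by eBayes. The residual degrees of freedom were 2 and the prior ones 2.59. Two-sided p-values were adjusted by Benjamini-Hochberg over 440 antibodies, and every adjusted p comes from this fit except where another test or setting is stated. The steps were tested on simulated data. Within-sample differences were compared with the exact permutation test.

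The members and lists were chosen with earlier results of these data known. Named antibodies were all members, the 3 antibodies nearest to a member, and, per related list, the 3 largest falls and rises among called antibodies without overlap between groups. Lyn, Lck, Akt, Akt1_pS473, Akt2_pS474 and the other listed tyrosine sites were added as values. Alternatives were linear levels, median centring, quantile normalization, relative loading control centring, an unequal-variance test, eBayes with trend and robust estimation, a filter on the 10% lowest levels, leaving out each replicate, and the replicate number as a block.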

Additional observations from a re-analysis of the deposited data

How the results depend on the processing

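Of the 440 antibodies 242 passed in limma, and between 148 (without sCT replicate 1) and 214 did so with each replicate left out (the sample left alone in its group takes the spread of the other group). Of the 14 antibodies to SRC, FAK and adhesion proteins 10 passed, between 2 (without sCT replicate 2) and 9 with each replicate left out, and 6 with relative loading control centring. The ranges with a replicate left out were 6 to 7 for the 10 receptor tyrosine kinase calls, 1 to 2 for the 4 calls among other tyrosine sites, and 23 to 36 for the 41 calls among serine and threonine sites. Quantile normalization gave 2 calls among the other tyrosine sites. With 3 samples 1 residual degree of freedom remains, and the cause of the lower counts was not tested. The unequal-variance test, run on each antibody's linear levels alone, called 1 antibody of the panel after adjustment and 155 at an unadjusted p under 0.05. After adjustment it called 0 of the 14 (7 unadjusted), 0 of the SRC partners (8 unadjusted), 0 of the receptors (7 unadjusted) and 0 of the other tyrosine sites (3 unadjusted), with 1 call each in the adhesion, matrix and actin list and the serine and threonine sites.

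Among the 10 called antibodies, 2 changed direction, both under quantile normalization, Caveolin-1 to 0.13 and Paxillin to 0.14, and the cause was not tested. Of the 4 that did not pass, Vinculin, CD29 and Pyk2_pY402 changed sign with relative loading control centring, to -0.11, -0.12 and -0.06, which shifted the panel by -0.14. Vinculin passed under quantile normalization. All 5 within-sample differences kept their direction on linear levels, under quantile normalization and with each replicate left out. The linear scale, median centring and eBayes with trend and robust estimation kept all 10 calls, and the filter on low levels left Caveolin-1 out and kept 9.

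The replicate numbers share no stated culture or day. Same-numbered samples deviated together over the panel (r = 0.586, for 2 pairs, across antibodies). With the replicate number as a block, 238 antibodies passed, and 10 of the 14 kept their calls.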
